A study of Schizosaccharomyces pombe with 6 samples.

Results

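The gene nmt1 of fission yeast (Schizosaccharomyces pombe) was examined through the 39 probes that a tiling array placed across it, out of 43993 probes in all. The probes were chosen by position alone: every probe that is no control spot and that lies between 1838900 and 1840859 of chromosome III in the coordinates of the array. Each is 60 bases long and they start 50 bases apart. On the reference annotation nmt1 (SPCC1223.02) lies on the plus strand, and 8 of the probes were centred upstream of its transcript, 2 in the 5′ untranslated region, 20 in the coding sequence, 3 in the 3′ untranslated region and 6 downstream of the transcript. All 39 were well above background in both colours on all 6 arrays.

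The product of nmt1 makes the pyrimidine part of thiamine (vitamin B1), and its name stands for "no message in thiamine". Cells that find thiamine outside shut the gene off, and cells grown without it transcribe nmt1 as one of their most active genes, which made its promoter the standard switch of fission yeast expression plasmids. Transcription passes through nucleosomes, and histones lost on the way are replaced from the pool of free histones, so a gene's supply of newly made H3 is often read beside its transcription.

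The study followed nucleosome turnover. Cells carried the plasmid pINV1-H3.2-FLAG, were held in EMM-Leu with 8% glucose and 15 mM hydroxyurea, a drug that stalls DNA replication, for 4 h, and were then kept in 4% sucrose with the drug for 2 h to switch on FLAG-tagged H3. After 20 min in 1% formaldehyde the chromatin was broken into pieces of 400 to 600 bp, and DNA bound by the tagged H3 (Cy5) and whole-cell extract DNA (Cy3) were hybridised together. Wild type (WT) had 3 arrays, and the mutants amo1D, rix1E414K and pob3D had 1 array each. All groups shared the plasmid, the drug and the shift. Amo1 is a protein of the nuclear rim, Rix1 belongs to the rixosome, which works in ribosome assembly and in heterochromatin, and Pob3 is a subunit of the histone chaperone FACT. Hydroxyurea was present in every group, so the values describe cells with stalled replication. Thiamine is not mentioned in the labels and RNA was not analysed here, so the transcription of nmt1 in these cultures is unknown.

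Values below are log2 ratios of processed Cy5 over processed Cy3, centred on the median of each array, unless a single colour is named. A value of 0 is the typical probe of that array, and a higher ratio is more tagged H3 per input DNA, not per total H3. With no dye swap, a dye effect of single probes could not be told apart from a difference between positions. The amo1 gene served as the check of the amo1D label: the mean Cy3 signal over its 31 probes was -9.41 on the amo1D array and between -0.91 and -0.72 on the other 5. No probe lay in rix1 or pob3, so these labels could not be checked. The arrays sat on 3 slides, each with a mutant and a WT array. Slide 1 held amo1D beside WT replicate 1, slide 2 held rix1E414K beside WT replicate 2, and slide 3 held pob3D beside WT replicate 3. Separate cultures are not stated for the WT arrays, and their spread, on which the p-values rest, may be technical.

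The array's coordinates are not those of the reference assembly ASM294v3, and a constant of 900 bases was subtracted to place the nmt1 probes. The constant was inferred. Probe brightness follows base composition, so Cy3 was correlated with the level predicted from GC content by a curve fitted on chromosome II left of its gap, placed at 900 bases. The best constant differed between stretches that the curve had not used: 895 bases for the hrp1 patch on chromosome I, 1800 bases on chromosome II right of the gap, 5 bases at the left end of chromosome III, and 755 bases for the inv1 patch on chromosome III (r = 0.311, against 0.282 at 900). For the 30 nmt1 probes that end at the stop codon the correlation was highest at 900 bases (r = 0.543). Those 30 were picked after the profile had been seen, and over all 39 probes the best constant was 1440 bases (r = 0.524, against 0.09 at 900). Positions relative to the gene therefore depend on that choice, while positions along the array do not. At 1440 bases the stop codon would lie past the last probe. The parts of the gene named below, and the comparisons between them, therefore hold only for 900 bases. At 900 bases the transcript runs from 1839315 to 1840564 in array coordinates, which is chrIII:1838415-1839664 of the reference, and the coding sequence of 1041 bases is chrIII:1838485-1839525.

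Sequences from both ends of the gene are given here from the reference assembly on the plus strand, 5′ to 3′. The first is the 250 bases before the transcript start, chrIII:1838165-1838414, with the TATA element in capitals. The second is the last 90 bases of the coding sequence, chrIII:1839436-1839525, with the stop codon in capitals. With the constant of 900 bases, the main rise of the ratio began at the end of this stretch and ran on past it.
nmt1 promoter: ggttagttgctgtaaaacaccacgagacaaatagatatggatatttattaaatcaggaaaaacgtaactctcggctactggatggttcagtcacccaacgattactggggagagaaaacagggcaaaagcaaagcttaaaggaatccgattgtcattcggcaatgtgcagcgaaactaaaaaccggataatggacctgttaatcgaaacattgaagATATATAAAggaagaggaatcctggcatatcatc
nmt1 coding end: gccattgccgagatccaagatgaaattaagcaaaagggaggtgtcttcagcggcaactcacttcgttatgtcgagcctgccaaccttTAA

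The letters ATATATAAA begin 34 bases before the transcript start and occur 1 time in the window, both strands searched. They are known as the TATA box of nmt1, which the weaker versions of the promoter on expression plasmids shorten. The same letters were present in 131 of 5112 promoter windows of that length (2.56%). The window is 40% G and C.

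Tagged H3 was above the array median over the whole of nmt1 in WT, and it was distributed in 2 plateaus. Placed with the constant of 900 bases, the ratio was moderately raised from the first upstream probe to the stop codon. Beyond the stop codon it was higher on every array. Over the 25 probes of the transcript, the ratio was 1.33, 1.35 and 0.48 in WT replicates 1, 2 and 3, a mean of 1.05 ± 0.49 (SD, n = 3). WT replicate 3 was the low one. On WT replicates 1 and 2, only 2 and 1 of the 963 genes measured lay above nmt1, and on WT replicate 3 there were 31. Those above it were inv1 and the H3 gene hht2 on WT replicate 1, and hht2 on WT replicate 2. Both are genes that the plasmid's name points to. The median gene had a WT mean of 0.04 and an SD between WT arrays of 0.08, and 7 genes had a larger SD than nmt1.

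**Figure D1:**
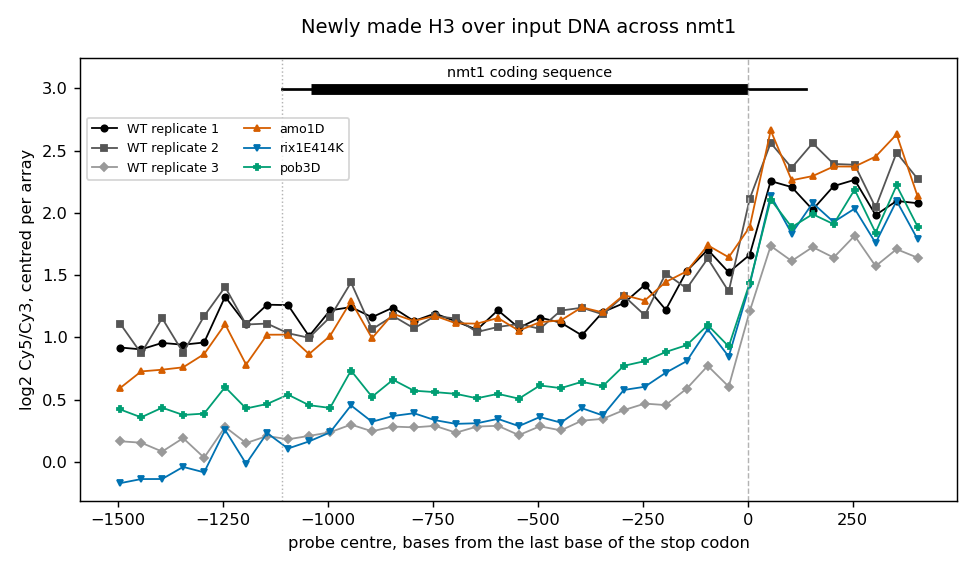
Log2 Cy5/Cy3, centred per array, of the 39 probes (points) by distance of the probe centre from the last base of the stop codon, in bases, with 1 line per array; the thick bar is the coding sequence, the thin line the untranslated regions, and the vertical lines mark the transcript start (dotted) and the stop codon (dashed). WT replicates 1 and 2 and amo1D run together near 1.2 over the coding sequence, and WT replicate 3, rix1E414K and pob3D lie lower. All 6 rise at the stop codon as placed with the constant of 900 bases.

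Upstream of the transcript the ratio was 1.05, 1.10 and 0.16 in the 3 WT arrays, 0.82 in amo1D, -0.01 in rix1E414K and 0.43 in pob3D. WT replicates 1 and 2 and amo1D were high and the other 3 arrays low. The same grouping recurred in the coding sequence, where the ratio was 1.24, 1.23 and 0.36 in WT, 1.25 in amo1D, 0.47 in rix1E414K and 0.67 in pob3D. At array positions 1839250 to 1839309, the probe that spans the TATA element was at 0.86 ± 0.57 (SD, n = 3) in WT, close to the WT mean of all upstream probes, 0.77 ± 0.53. The 2 probes of the 5′ untranslated region were at 0.78 ± 0.51. No dip at the promoter was resolved with fragments of 400 to 600 bp.

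Upstream probes were below the transcript on each array. The difference, upstream minus transcript, was -0.28, -0.25 and -0.33 in WT, -0.52 in amo1D, -0.62 in rix1E414K and -0.36 in pob3D. Its mean was -0.39, it was below 0 on 6 of 6 arrays, and the two-sided exact sign-flip permutation test over the 6 arrays of 4 genotypes gave p = 0.0312, the smallest it can give. Because 3 of the transcript probes lie beyond the stop codon, the coding sequence alone was also used, and the mean difference was then -0.28 with the same p of 0.0312 in the exact test. Without a dye swap, a fixed dye effect of the probes would have the same sign on all arrays. The exact test cannot tell such an effect from a difference in tagged H3.

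Within the coding sequence the profile was flat at first. Its 20 probes, taken in 4 blocks of 5 from start to stop codon, had WT means of 0.88, 0.84, 0.90 and 1.16. The last block was above the first on every array, by 0.23 to 0.45. In Cy5 alone the last block minus the first ran from -0.13 to 0.18, and in Cy3 from -0.47 to -0.27.

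A step in the ratio was the main feature of the tiled stretch, and it lies at the stop codon when the constant is 900 bases. Over all 39 probes the best constant was 1440 bases (r = 0.524, against 0.09 at 900). With 1440 bases the stop codon would lie past the last probe, so the place of the step relative to the gene is uncertain. Beyond the stop codon the ratio was 2.09, 2.35 and 1.63 in WT, 2.34 in amo1D, 1.90 in rix1E414K and 1.94 in pob3D. Its lowest value was above the highest coding value of any array, 1.25. The WT mean of 2.02 ± 0.37 (SD, n = 3) is 4.06 times the median probe of the array, against 1.92 times for the coding sequence. Beyond the stop codon minus coding came to 1.08 ± 0.22 (SD, n = 3) in WT, and to 1.09 in amo1D, 1.42 in rix1E414K and 1.27 in pob3D.

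Most of the rise took place over 2 probes. In WT the mean ratio was 1.16 at the probe centred at -45.5 bases from the end of the stop codon, 1.66 at 4.5 bases and 2.18 at 54.5 bases. The last of these was the highest of the 39 probes, with 2.26, 2.56 and 1.73 in the WT arrays. The lowest was the second probe of the patch, array positions 1838950 to 1839009, with 0.90, 0.87 and 0.15 in the WT arrays. From 54.5 bases on the ratio stayed on its plateau to the end of the tiled stretch, so where it comes down again could not be seen.

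The profile along the 39 probes had much the same shape on all arrays. Between pairs of arrays the correlation over positions was 0.95 to 0.994 (15 pairs), and over the 30 probes up to the stop codon it was 0.714 to 0.979. These are correlations over neighbouring probes that share fragments, so they describe the shape and carry no test. Over the same 30 probes the WT mean ratio correlated with the probes' GC content at r = 0.521.

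**Figure D2:**
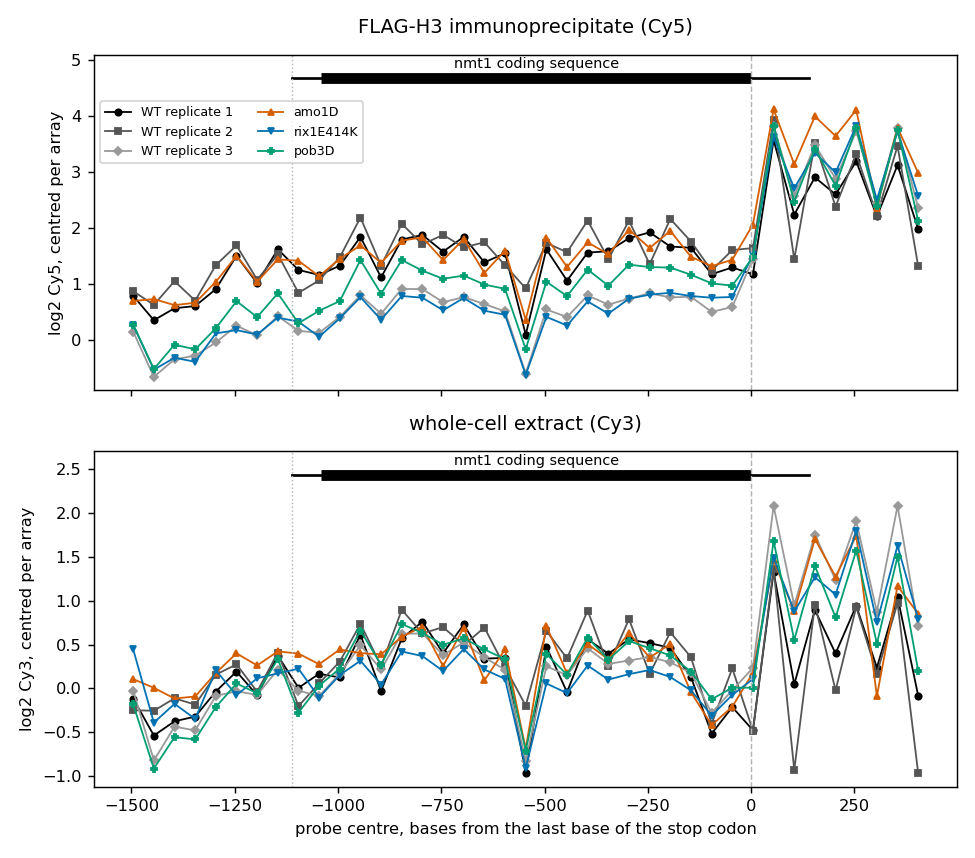
Log2 signal of the immunoprecipitate (Cy5, top) and the whole-cell extract (Cy3, bottom), each centred per array, of the 39 probes by distance of the probe centre from the last base of the stop codon, in bases, with 1 line per array. Past the stop codon both signals zigzag between neighbouring probes, and the arrays differ more in Cy3 there than over the coding sequence.

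Each colour was then read alone. The brightness of a probe in 1 colour also depends on the probe, so levels of different stretches are a description, and arrays were compared at the same stretch. In Cy5 the coding sequence was at 1.49, 1.67 and 0.60 in WT, 1.54 in amo1D, 0.56 in rix1E414K and 1.04 in pob3D. Beyond the stop codon Cy5 was at 2.55, 2.58 and 2.95 in WT, 3.35 in amo1D, 2.98 in rix1E414K and 2.89 in pob3D. Cy5 beyond the stop codon minus that of the coding sequence was between 0.91 and 2.42, largest in rix1E414K and WT replicate 3. The arrays that were low in the coding sequence were not low beyond it: WT replicate 3 was the highest WT array there.

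In Cy3 the coding sequence was at 0.26, 0.43 and 0.24 in WT, 0.29 in amo1D, 0.09 in rix1E414K and 0.33 in pob3D. Beyond the stop codon Cy3 was at 0.48, 0.22 and 1.31 in WT, 1.02 in amo1D, 1.08 in rix1E414K and 0.91 in pob3D. Between arrays, the same probes thus differed little in the coding sequence and more beyond the stop codon, with a WT SD of 0.11 and 0.57. Beyond minus coding was lowest in WT replicate 2, at -0.21, and highest in WT replicate 3, at 1.07.

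Beyond the stop codon Cy3 differed between neighbouring probes of opposite strand. In WT the 5 plus-strand probes there had a mean Cy3 of 0.13 and the 4 minus-strand probes 1.35, while their ratios were 1.93 and 2.13. In the coding sequence the 10 plus-strand and 10 minus-strand probes had Cy3 means of 0.36 and 0.26 and ratios of 0.94 and 0.95. Taken over plus-strand probes alone, Cy3 beyond the stop codon was below that of the coding sequence in WT replicate 1 (0.03 against 0.35) and WT replicate 2 (-0.45 against 0.45). Strand and position alternate along the tiling, and their parts in the Cy3 difference were not told apart.

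Other DNA that the plasmid's name points to was read beside nmt1. The plasmid expresses H3.2 from the inv1 promoter, inv1 being the gene for invertase, which splits sucrose, and hht2 is an H3 gene listed as h3.2 in the reference. On the inv1 patch the ratio before the start codon was 2.32, 2.53 and 1.77 in WT, 2.68 in amo1D, 2.03 in rix1E414K and 2.05 in pob3D. In the inv1 coding sequence it was 1.25, 0.54 and 0.29 in WT, 1.09 in amo1D, 0.10 in rix1E414K and 0.61 in pob3D. Like nmt1, the inv1 patch had a high and a low plateau whose means did not overlap over the arrays, with the high one on the promoter side.

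The high plateau of nmt1 lay below that of inv1 on each array, by less than the steps within either patch. The 9 nmt1 probes beyond the stop codon minus the inv1 probes before the start codon came to between -0.34 and -0.11 in the ratio. The hht2 coding sequence was at 2.09, 2.30 and 1.60 in WT, 2.59 in amo1D, 1.91 in rix1E414K and 1.82 in pob3D. Probes in hht2 can also take up DNA of the other, near-identical H3 genes, so its level is uncertain. As background, many fission yeast plasmids end their expression unit with the terminator of nmt1. What ends the H3 unit of pINV1-H3.2-FLAG is not given in the sources used here, and the part of plasmid DNA in the signal beyond the stop codon was not tested.

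**Figure D3:**
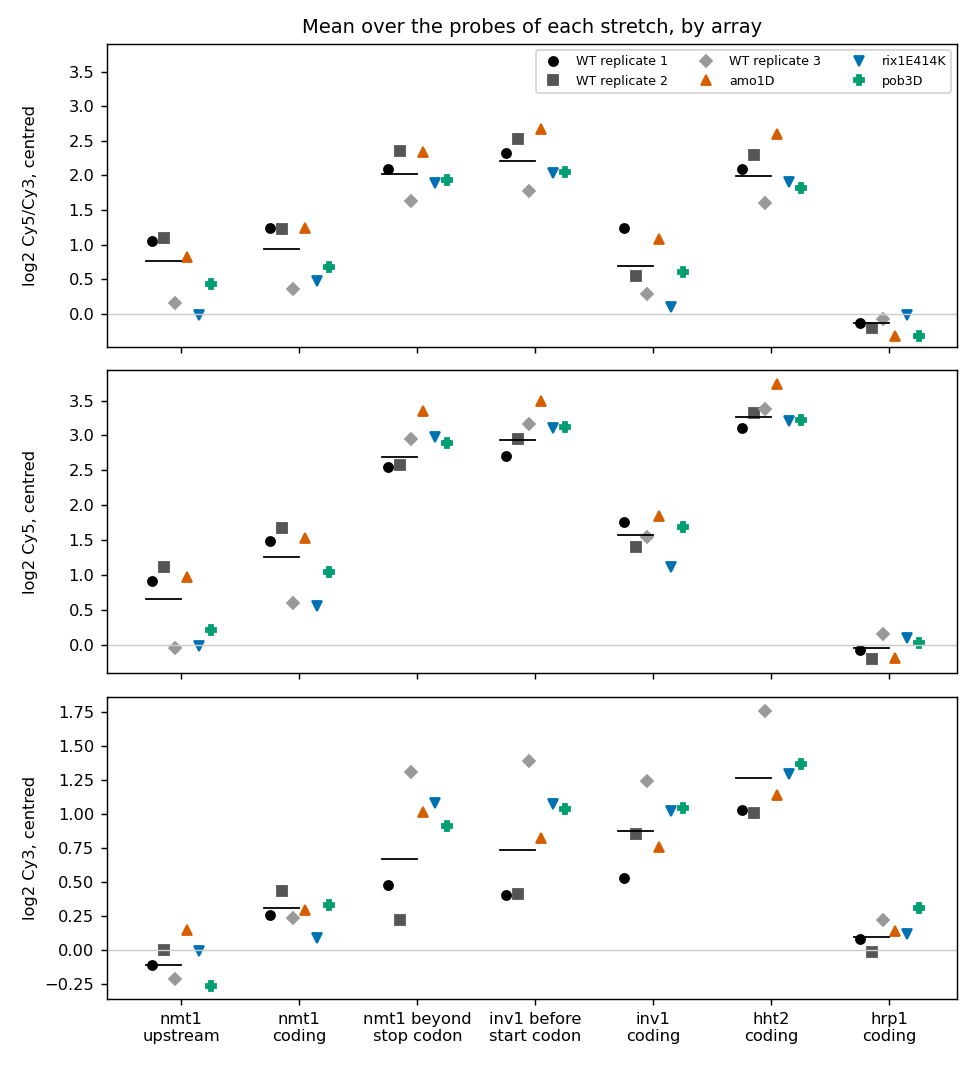
Mean log2 Cy5/Cy3 (top), Cy5 (middle) and Cy3 (bottom), centred per array, over the probes of 7 stretches, with 1 point per array and a bar at the mean of the 3 WT arrays. In the ratio, nmt1 beyond the stop codon, inv1 before the start codon and hht2 coding lie between 1.60 and 2.68, nmt1 upstream and coding and inv1 coding lie between -0.01 and 1.25, and hrp1 coding lies below 0.

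Whole transcripts were compared with the other genes on each array. Nmt1 minus hrp1, a chromatin remodeller gene tiled on chromosome I, was 1.48, 1.52 and 0.55 in WT, 1.66 in amo1D, 0.62 in rix1E414K and 1.10 in pob3D. It was above 0 on 6 of 6 arrays, with a mean of 1.15 and p = 0.0469 after Benjamini-Hochberg adjustment over 3 genes in the exact sign-flip test. Nmt1 minus hht2 was below 0 on 6 of 6 arrays, from -0.73 to -0.26, with the same adjusted p of 0.0469 in that exact test. Nmt1 minus inv1 was -0.23, 0.21 and -0.25 in WT, -0.22 in amo1D, -0.07 in rix1E414K and -0.24 in pob3D, and with p = 0.0938 in the exact test no difference was shown. Its sign turned with normexp background (0.065) and with the median over probes (0.13). The inv1 transcript takes in the 16 probes before its start codon, which form its high plateau. Over coding probes alone, nmt1 minus inv1 was -0.01, 0.69 and 0.07 in WT. It was 0.16 in amo1D, 0.37 in rix1E414K and 0.06 in pob3D, and was not tested. As with upstream minus transcript, the exact test cannot tell a fixed dye effect of the probes from a difference between genes.

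The mutants were set against WT next. No mutant difference at nmt1 passed limma's test (Benjamini-Hochberg over 963 genes), whose spread comes from the 3 WT arrays, and in the transcript ratio each mutant lay within the WT range. Across all genes limma called 0% at an adjusted p of 0.05 in the ratio for each mutant, and 4.88%, 5.92% and 12.7% at an unadjusted 0.05 for amo1D, rix1E414K and pob3D.

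In amo1D the transcript of nmt1 was at 1.34, inside the WT range of 0.48 to 1.35. The difference from the WT mean was 0.29 (SE 0.37, limma adjusted p = 0.944), with a 95% interval from -0.66 to 1.25. Against WT replicate 1 on the same slide it was 0.02, and without WT replicate 3 it was 0.01, so that array set its size. Of the 39 probes, 9 lay above all 3 WT arrays, 6 of them coding and 3 beyond the stop codon, against 25% of all probes, and 0 lay below all 3, against 23.4%. The 3 probes with the largest differences were all beyond the stop codon: 0.59 at the probe 304.5 bases past its end, 0.53 at 354.5 bases and 0.48 at 54.5 bases (limma adjusted p = 1 for each). In Cy5 alone 8 of the 9 probes beyond the stop codon were above all 3 WT arrays, and 14 of all 39, against 15.5% of all probes. In Cy3 15 of the 39 were above all 3 WT arrays, 7 of them upstream, against 17.8% of all probes, and 5 were below, against 20.7%.

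In rix1E414K the transcript was at 0.60, also inside the WT range. The difference was -0.45 (SE 0.37, limma adjusted p = 0.773), with a 95% interval from -1.40 to 0.51, and against WT replicate 2 on the same slide it was -0.74. Upstream of the gene the array was below every WT array, at -0.01 against 0.16 in WT replicate 3, with a WT SD of 0.53. Of the 8 upstream probes 7 lay below all 3, but neighbouring probes share fragments and are not separate observations. Over all 39 probes 10 lay below all 3, against 23.5% of all probes, while 0 of 39 lay above all 3 (23.6% of all probes did). The largest differences were -0.90, -0.87 and -0.81, at upstream probes centred at -455.5, -355.5 and -255.5 bases from the start codon (limma adjusted p = 1 for each). In the coding sequence the 2 colours were low together, with 16 of 20 probes below all 3 WT arrays in Cy5 and 14 of 20 in Cy3, against 21.3% and 25.7% of all probes, and only 1 of 20 in the ratio. Beyond the stop codon 5 of 9 probes were above all 3 WT arrays in Cy5 (25.5% of all probes). Without WT replicate 3 the transcript difference was -0.73.

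In pob3D the transcript was at 0.80 and the difference was -0.26 (SE 0.37, limma adjusted p = 0.753), with a 95% interval from -1.21 to 0.70. Against WT replicate 3 on the same slide the sign was opposite, 0.31, since that WT array was the lowest. None of the 39 probes lay above all 3 WT arrays (27.6% of all probes did) and none below (30.6%). The largest differences were -0.44 at the first coding probe and -0.40 at each of 2 upstream probes centred at -205.5 and -105.5 bases from the start codon (limma adjusted p between 0.759 and 0.795). In Cy3 alone 5 of the 39 were below all 3 WT arrays, 4 of them upstream, against 20.4% of all probes.

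Probe by probe, limma over all 43993 probes called 0 of the 39 in the ratio for each mutant. At an unadjusted p under 0.05 it had 1 in amo1D, 2 in rix1E414K and 0 in pob3D, against 3.29%, 3.93% and 8.23% of all probes. In each colour alone it also called 0 of the 39. Over all probes it called 0.0705% in amo1D in either colour, 0% of Cy5 and 0.00455% of Cy3 in rix1E414K, and 0% in pob3D. At an unadjusted p under 0.05, Cy5 had 2 of the 39 in amo1D and 0 in rix1E414K and pob3D, against 0.618%, 1.97% and 1.82% of all probes. Cy3 had 1 in rix1E414K and 0 in amo1D and pob3D, against 6.12%, 0.639% and 2.66%. With Cy5 alone the gene differences were 0.35, -0.58 and -0.18 for amo1D, rix1E414K and pob3D, and with Cy3 alone they were 0.06, -0.13 and 0.04, with limma adjusted p between 0.667 and 0.999. Against the WT array of the same slide they were 0.14, -0.92 and 0.37 in Cy5 and 0.11, -0.16 and 0.03 in Cy3. In either colour the only gene called was amo1 itself, in amo1D (0.104% of genes). The mutants share the 3 WT arrays as their control, and each has 1 array.

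**Figure D4:**
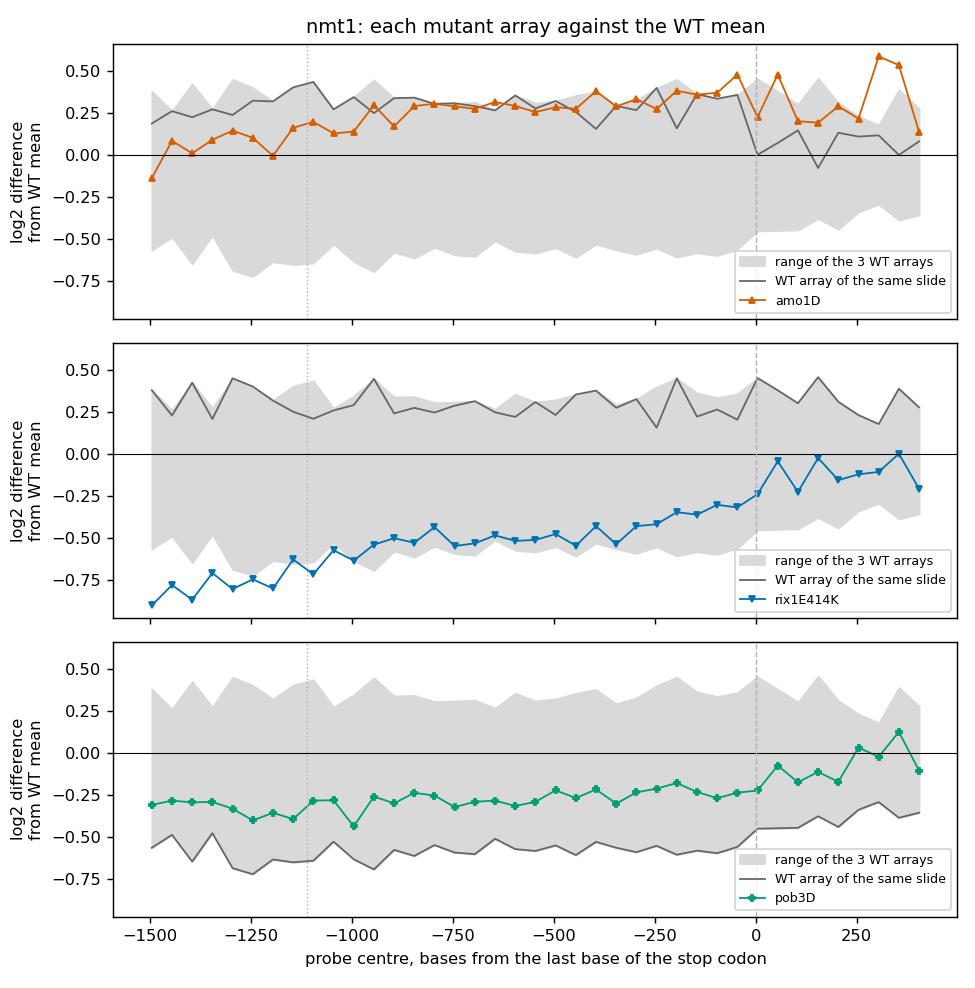
Difference of log2 Cy5/Cy3 from the mean of the 3 WT arrays at each of the 39 probes, by distance of the probe centre from the last base of the stop codon, for amo1D (top), rix1E414K (middle) and pob3D (bottom); the shaded band is the range of the 3 WT arrays and the grey line the WT array of the same slide. Most points lie within the band. Above it lie 9 amo1D points, against 25% of all probes, and below it 10 rix1E414K points, against 23.5% of all probes.

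Some genes varied over the 6 arrays much as nmt1 did. The SD of the nmt1 ratio over the 6 arrays was 0.40. Among the 80 genes with at least 5 probes and an SD of at least 0.20, the 5 most like nmt1 by Pearson's r over the 6 arrays were tri1 (r = 0.988), rrf1 (0.967), gas2 (0.949), gem7 (0.945) and SPBC1711.09C (0.937). They were picked for likeness, and 7 of the 80 had r above 0.9. Spearman's rho was 0.829, 0.943, 0.771, 0.771 and 0.714, so the order of the arrays was not the same. At tri1 the ratio was 0.61, 0.55 and 0.13 in WT, 0.65 in amo1D, 0.20 in rix1E414K and 0.32 in pob3D. Here, as at nmt1, the arrays formed a high and a low group of 3, so these correlations rest mainly on that split and carry no test.

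The thiamine list had 11 genes, among them nmt1, the thiamine biosynthesis genes thi2 and thi4, the regulator thi1 and the transporter thi9. It also held both neighbours of nmt1, included for their position. All 11 were in the reference and nmt1 was the only 1 with a probe. How nmt1 compares with the rest of its pathway could not be measured on this array.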

How the data were processed

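The authors deposited spot intensity values on a linear scale, made with Agilent Feature Extraction (version 12.0.3.1) by background subtraction, spatial detrending and a linear dye normalization, per the file headers. The deposited table of ratio values equalled processed Cy5 over processed Cy3 on every array (largest relative difference 9.05e-09). From the intensities, log2(Cy5/Cy3) and each log2 colour were centred on the array median, with no loess or quantile step. Outlier spots (0 to 19 per array) and 1227 control spots were left out. Median Cy5 signals ran from 1018 to 1150 and median Cy3 signals from 993.2 to 1145; the number of arrays limits the precision. There was no dye swap. Genes were means of at least 2 probes, without 1267 long noncoding genes. The linear model had 1 coefficient per genotype (limma 3.58.1, R 4.3.3; 2 residual degrees of freedom); slide and mutant together left none. Where a spot was missing on a mutant's array, that mutant had no value at the probe; no value was imputed. Named were nmt1, inv1, hrp1, hht2, the thiamine list, the 5 genes most like nmt1, the highest and lowest probe in WT, and the 3 probes with the largest difference per mutant. Members, lists and tests were chosen with earlier results of these data known. The fit was tested on simulated data with differences larger than any at nmt1. That test says nothing about the power to find differences as small as those at nmt1. Sequences and annotation are those of RefSeq's ASM294v3.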

Additional observations from a re-analysis of the deposited data

How the results depend on the processing

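Results were recomputed with normexp (offset 50) and with no background subtraction, both on median spot signals, as the files used hold no mean signals; with quantile, loess and median absolute deviation scaling; centred on the mean; with outlier spots; with only probes well above background; with the median over probes; and, an alternative chosen after seeing the data, with coding probes only. Against the WT array of the same slide, pob3D minus WT turned to 0.31 in the ratio and to 0.37 in Cy5, and amo1D minus WT moved to 0.11 in Cy3 and to 0.14 in Cy5, with rix1E414K at -0.92 in Cy5. Nmt1 minus inv1 turned to 0.065 with normexp and to 0.13 with the median over probes (exact sign-flip p, adjusted, 0.625 and 0.344). The cause was not tested.

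Without each WT replicate in turn, the ratio difference ranged from 0.0067 to 0.44 for amo1D, from -0.73 to -0.30 for rix1E414K and from -0.54 to -0.11 for pob3D. In Cy5 it ranged from 0.07 to 0.52, from -0.85 to -0.41 and from -0.46 to -0.01, and in Cy3 from 0.03 to 0.08, from -0.15 to -0.11 and from 0.01 to 0.06. The WT level of the transcript ranged from 0.91 to 1.34. Without WT replicate 3 it was 1.34 ± 0.01 (SD of the other 2). Quantile and median absolute deviation scaling brought amo1D minus WT to 0.14 and 0.16, and quantile scaling brought pob3D minus WT to -0.16. Nmt1 minus hht2 was -0.98 with the median over probes and -0.33 with normexp, and upstream minus transcript was -0.25 with the median over probes. No mutant difference that was tested passed the threshold under the alternatives run for it. The counts of called nmt1 probes were 0 with both background settings, quantile and median absolute deviation scaling, outlier spots kept and each WT replicate left out, the alternatives run for them. Upstream minus transcript and nmt1 minus hrp1 and hht2 kept their sign and p under each alternative run. With unshifted array coordinates no probe lies upstream, so that alternative gave no value. No paired test was possible because each mutant has 1 array, so the differences from the WT array of the same slide are given without a test.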
